A study of Mus musculus with 3 samples.

Results

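DNA replication and G1/S genes were described in NIH3T3 fibroblasts, an established line of mouse embryonic fibroblasts, after stimulation with GDF15 or TGF-β. A list of 48 genes was taken by symbol from a table of 15554 protein coding genes, and 47 of them were found. *Dut* was not analysed here. All 47 had a mean level of at least 1 FPKM (fragments per kilobase of transcript per 1e6 mapped fragments) over the libraries, as did 9226 genes of the table. The CTRL cells received serum-free medium alone, and the other cells received GDF15 at 100 ng/mL or TGF-β at 4 ng/mL in the same medium. All 3 groups had been kept without serum for 24 h before the 24 h of stimulation. RNA was pooled within each treatment, and 1 library was sequenced per treatment. No value therefore has a replicate error, no test was made, and each difference is one between 2 libraries that has no replicate check. The comparisons with CTRL share the single CTRL library.

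DNA replication is prepared in G1, when the origin recognition complex, Cdc6 and Cdt1 load the MCM helicase onto origins. In S phase Cdc45 and the GINS complex join the loaded helicase, DNA polymerase α with primase starts each new strand, and the clamp PCNA, loaded by replication factor C (RFC), holds the copying polymerases on DNA. E2F transcription factors, held back by the retinoblastoma protein until cyclin-dependent kinases release them, drive many of these genes at the G1/S transition. Fibroblasts without serum leave the cycle in large part and re-enter it when growth factors are added.

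In these libraries the replication genes stood slightly lower after either stimulation than in CTRL. The change of a gene is given as the difference of log2(FPKM + 1), a scale on which changes at low levels look smaller than they are. The median log2 change of the 47 genes was -0.08 with GDF15 and -0.15 with TGF-β, against -0.03 and -0.07 over the 9226 genes. With the trend by transcript length removed, it was -0.04 and -0.13, against -0.03 and -0.07 over 9193 genes with a known length. With GDF15, 34 of the 47 were lower and 13 higher, where 55.6% of all genes were lower. With TGF-β, 38 were lower and 9 higher, where 62.8% of all genes were lower. These splits moved with the scaling. With each library centred on the median change of well expressed genes, they were 26 lower and 21 higher with GDF15, and 31 lower and 16 higher with TGF-β, where 46.5% and 49.5% of all genes were lower. With the trend by expression level removed, they were 31 lower and 16 higher with GDF15, and 33 lower and 14 higher with TGF-β, where 50.1% of all genes were lower in each. In RNA of a whole culture, a change in the number of cells in S phase and a change in replication RNA per cell cannot be told apart, and the S phase share of the cells was not analysed here.

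The promoters of 38 of the 47 genes were found in the RefSeq windows (GRCm38.p6) that reach from 250 bases before to 50 after each start. They were searched on both strands for the E2F words TTTGGCGC, TTTCCCGC, TTTGCCGC and TTTCGCGC, for CCAAT, and for TTTGAA, the CHR element of many mitotic promoters. None of these words contains another. An E2F word was found for 14 of the 38 genes (36.8%), against 5.03% of 7019 genes with a mean of at least 1 FPKM and 2.6% of all 27025 genes with a window. CCAAT was found for 24 of the 38 (63.2%), against 44.0% and 41.1%. TTTGAA was found for 5 of the 38 (13.2%), namely *Cdc45*, *E2f2*, *Fen1*, *Gins3* and *Mcm2*, against 13.9% and 20.2%. A match is a description of letters and not a proven binding site. The stretches below hold E2F words of 3 helicase genes and 2 licensing genes, of *Gins3*, the gene with the lowest TGF-β over CTRL ratio among the 47, and, for contrast, the CHR word of the mitotic gene *Cdc20*. They are written 5′ to 3′ on the gene's strand, with E2F words and TTTGAA in capitals and 20 flanking bases where the sequence before the start allowed it.
*Mcm5* (chr8:75109336-75109387, plus strand): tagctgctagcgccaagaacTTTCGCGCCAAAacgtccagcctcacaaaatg
*Mcm6* (chr1:128359725-128359835, minus strand): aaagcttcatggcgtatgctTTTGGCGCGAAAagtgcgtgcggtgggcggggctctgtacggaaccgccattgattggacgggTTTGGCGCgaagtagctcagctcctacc
*Mcm7* (chr5:138172021-138172068, minus strand): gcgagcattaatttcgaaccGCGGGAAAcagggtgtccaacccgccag
*Cdc6* (chr11:98907993-98908040, plus strand): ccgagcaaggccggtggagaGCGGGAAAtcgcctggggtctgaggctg
*Orc1* (chr4:108579407-108579453, plus strand): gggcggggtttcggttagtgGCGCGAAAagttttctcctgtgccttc
*Gins3* (chr8:95633498-95633556, plus strand): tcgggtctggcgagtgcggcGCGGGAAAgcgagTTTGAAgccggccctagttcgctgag
*Cdc20* (chr4:118437344-118437381, minus strand): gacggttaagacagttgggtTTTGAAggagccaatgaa

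In *Mcm5* the capitals hold 2 E2F words that overlap on opposite strands, and in *Mcm6* they hold 3, of which 2 overlap in the same way. *Mcm7* has a further E2F word after its start, which is not shown. *Gins3* carries an E2F word and TTTGAA a few bases apart. CCAAT was left in lower case and lies, on either strand, in the stretches of *Mcm6* and *Cdc20*. Besides the genes shown, *Cdt1*, *E2f2*, *Lig1*, *Mcm3*, *Pola1*, *Pold1*, *Rfc3* and *Uhrf1* had an E2F word. The 14 genes with an E2F word had a median log2 change of -0.08 with GDF15 and -0.10 with TGF-β, and the 24 without one had -0.08 and -0.17. Both groups of promoters thus went with small negative medians in both comparisons, as did the 9226 genes, with -0.03 and -0.07.

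**Figure D1:**
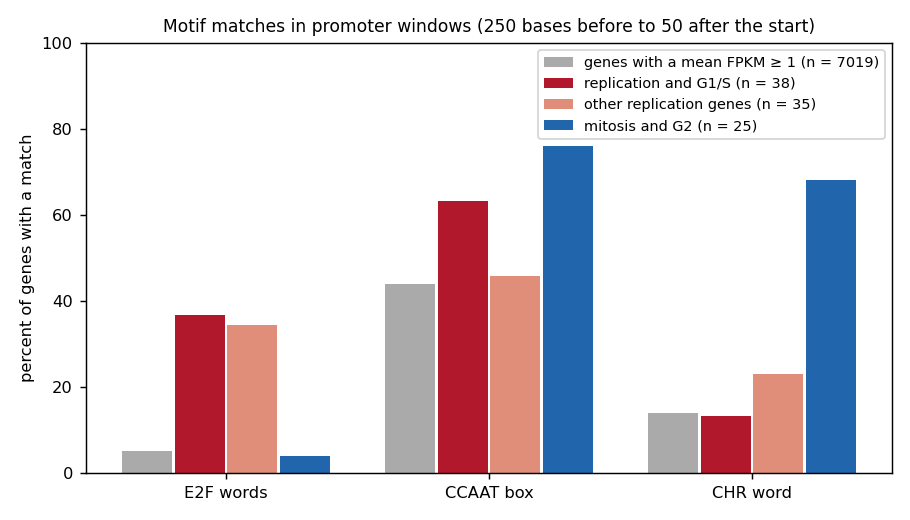
Share of genes, in percent, whose promoter window holds an E2F word, CCAAT or the CHR word TTTGAA on either strand, with 1 bar per gene list. E2F words were found for 36.8% of the replication and G1/S genes and 4.0% of the mitosis and G2 genes, and the CHR word for 13.2% and 68.0%.

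The levels of the 47 genes spanned a wide range. *Pcna*, the sliding clamp, had the highest level, with a mean over the libraries of 66.9 FPKM that exceeded 91.9% of the 9226 genes. *Rpa1* followed with 30.7 FPKM, then *Slbp* with 20.3, *Mcm6* with 19.5 and *E2f1* with 19.2 FPKM. At the lower end stood *Cdc6* with 1.93 FPKM, *Ung* with 1.29 and *E2f2* with 1.12 FPKM. From *Slbp* to *Mcm4*, the eighth in the order, neighbouring means lay within 1 FPKM of each other, and without replicates their order cannot be given with an error.

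**Figure D2:**
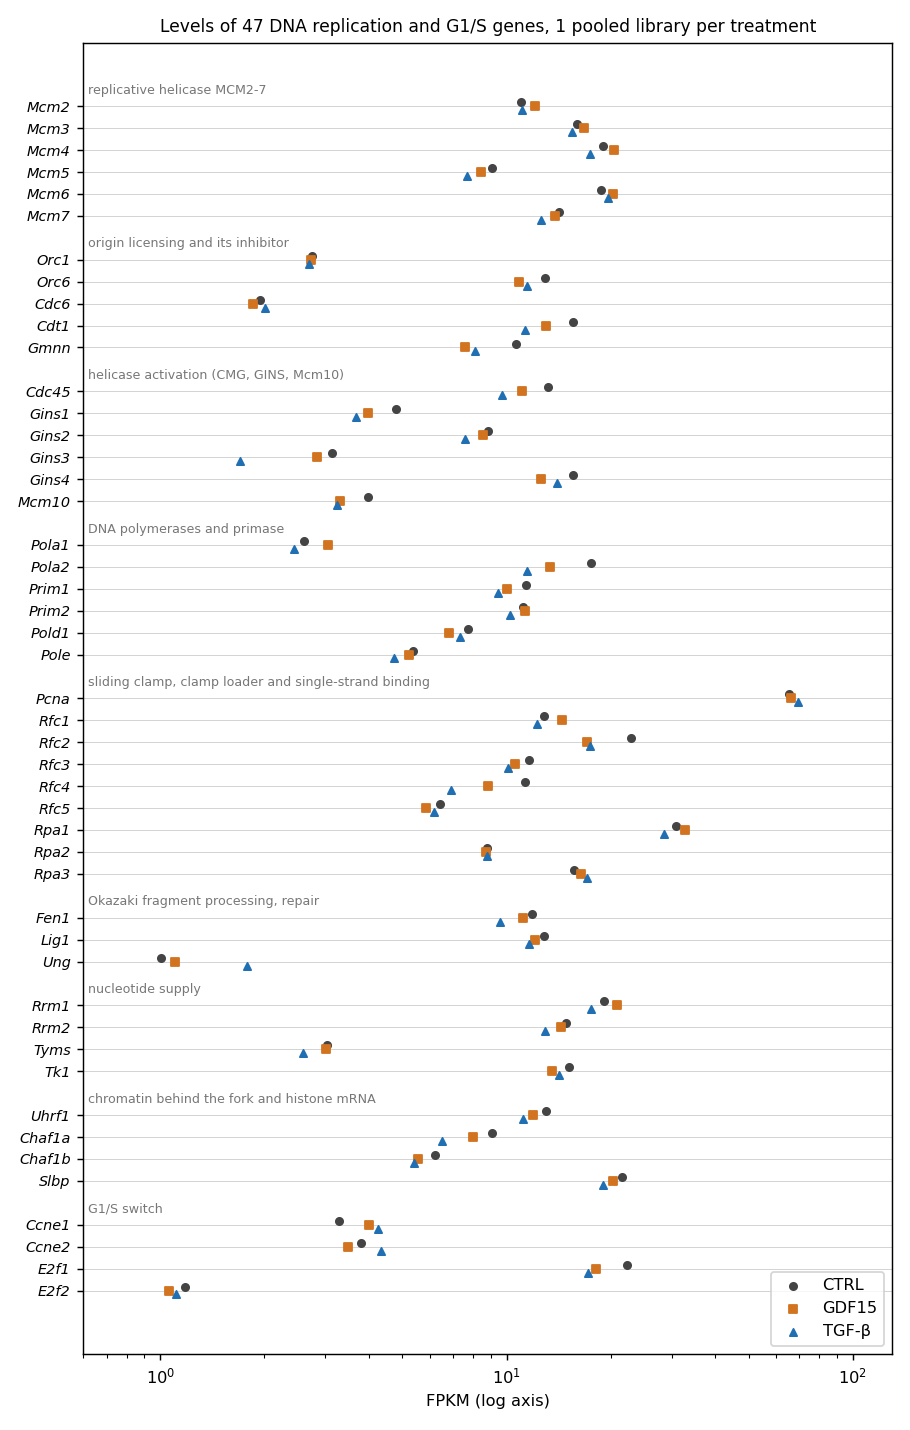
FPKM of each of the 47 genes on a log axis in the CTRL (circles), GDF15 (squares) and TGF-β (triangles) libraries, grouped by role and shifted slightly in height so that the points can be seen. *Pcna* lies near 66.9 FPKM in all 3 libraries, and *Gins3*, *Rfc4* and *Ung* show the TGF-β point farthest from CTRL.

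Depth was estimated from the steps of low FPKM values at 18.6 (times 1e6 fragments) in CTRL, 21.7 with GDF15 and 17.7 with TGF-β. Fragments per gene, estimated from it and the length of the longest coding transcript, gave each FPKM ratio an exact 95% interval. Where shorter transcripts were expressed, the fragments are overestimated and the interval is too narrow. The intervals cover counting error only, since reads copied by PCR are not independent molecules and the spread between cultures was not measured. With GDF15 the interval lay below 1 for 12 of the 47 genes and above 1 for 4, where these shares were 29.8% and 23.2% over all genes. With TGF-β it lay below 1 for 22 genes and above 1 for 1, where the shares over all genes were 35.9% and 18.2%. On the scale of log2(FPKM + 1), no replication gene passed 1.5-fold with GDF15, where 2.82% of all genes did. With TGF-β, *Gins3* and *Rfc4* passed 1.5-fold, both lower, where 5.59% of all genes passed in either direction. Neither passed it after the libraries were scaled to a common upper quartile or centred, or the expression trend was removed. As plain FPKM ratios, which the plot of ratios shows, 4 passed it with TGF-β, *Gins3*, *Rfc4* and *Pola2* lower and *Ung* higher, where 7.98% of all genes did. None passed 2-fold in either comparison on either scale. On the scale of log2(FPKM + 1), 0.477% of all genes did with GDF15 and 1.48% with TGF-β.

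**Figure D3:**
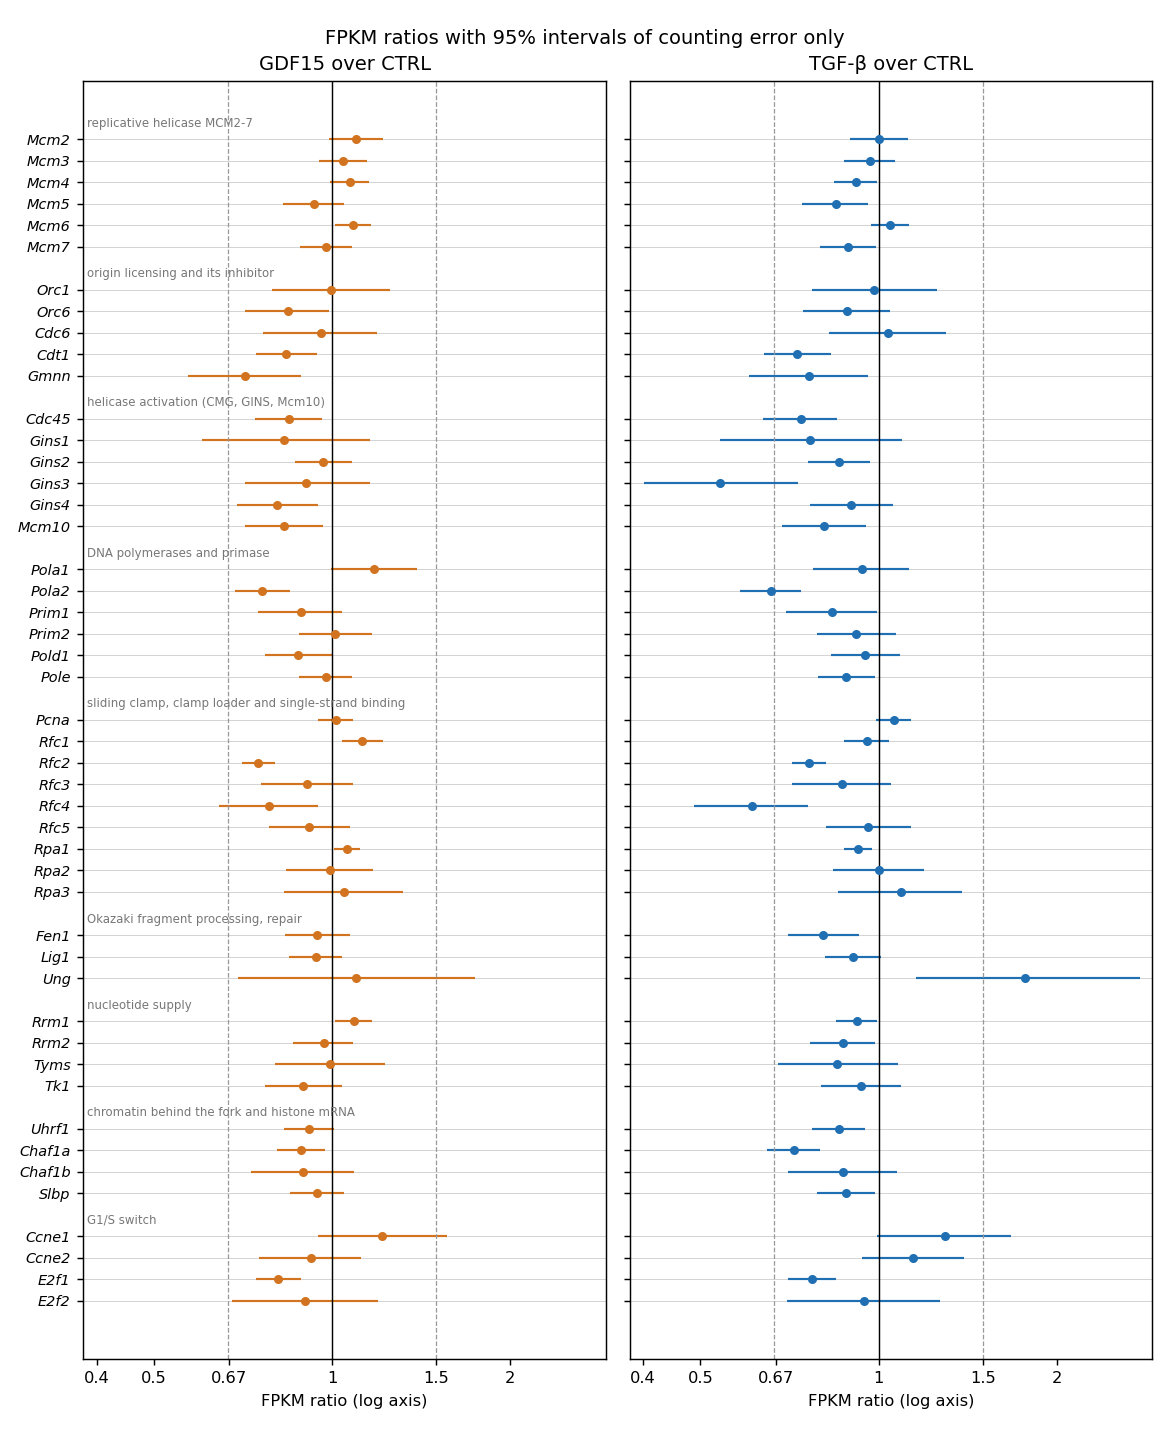
FPKM ratio of each gene, GDF15 over CTRL on the left and TGF-β over CTRL on the right, on a log axis with 95% intervals of counting error, where dashed lines mark 1.5-fold. With TGF-β 22 of the 47 intervals lie below 1 and that of *Ung* lies above it.

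The subunits of the MCM2-7 helicase, which unwinds DNA at the fork, lay within 0.22 of CTRL on the log2 scale in both stimulated libraries. The counting interval lay above 1 for *Mcm6* with GDF15 (1.01 to 1.16) and below 1 for *Mcm4*, *Mcm5* and *Mcm7* with TGF-β. Over all genes it lay above 1 for 23.2% with GDF15 and below 1 for 35.9% with TGF-β. *Mcm2* stood at 11.02 FPKM in CTRL, 12.1 with GDF15 and 11.1 with TGF-β. *Mcm3* had 16.02, 16.7 and 15.5 FPKM, and *Mcm4* had 19.03, 20.4 and 17.4 FPKM in the same order. *Mcm6* had 18.7 FPKM in CTRL, 20.3 with GDF15 and 19.6 with TGF-β. These 4 were highest in the GDF15 library, although *Mcm4* was not above CTRL once the trends with length and GC content were removed. *Mcm5* had 9.07, 8.44 and 7.67 FPKM and *Mcm7* 14.2, 13.8 and 12.5 FPKM in CTRL, GDF15 and TGF-β, so both were highest in CTRL, although *Mcm7* was not above GDF15 with the libraries centred or with the expression trend or the trends with length and GC content removed. The median log2 change of the 6 was 0.07 with GDF15 and -0.08 with TGF-β. All 6 were lower with TGF-β than with GDF15, by a median of -0.12 on the log2 scale, where 60.3% of all genes were lower. They stayed lower under scaling, centring and trend removal, the only ones of the 10 alternatives that could change a sign. For *Mcm4* alone the counting interval of the TGF-β over GDF15 ratio lay below 1 (0.790 to 0.926), where it did for 26.8% of all genes. The summed level was 88.0 FPKM in CTRL, 91.7 with GDF15 and 83.7 with TGF-β, and the highest subunit exceeded the lowest by 2.1, 2.41 and 2.55 times.

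Of the 5 genes of origin licensing, 5 were lower than in CTRL with GDF15 and 4 with TGF-β. Over all genes 55.6% and 62.8% were lower. The counting interval lay below 1 for 3 and 2 of the licensing genes, and for 29.8% and 35.9% of all genes. *Orc1*, the largest subunit of the origin recognition complex, had 2.74 FPKM in CTRL, 2.72 with GDF15 and 2.69 with TGF-β, and *Cdc6*, the ATPase that helps load the helicase, had 1.94, 1.85 and 2.01 FPKM. Neither differed between libraries by more than its counting error, and both took either sign against CTRL under the alternatives. *Orc6*, another subunit of that complex, had 12.9, 10.9 and 11.4 FPKM. *Cdt1*, the loading factor of the helicase, had 15.6 FPKM in CTRL, 13.0 with GDF15 and 11.3 with TGF-β. The TGF-β ratio of *Cdt1* was 0.728 (0.640 to 0.830) and its GDF15 ratio 0.837 (0.744 to 0.942), so CTRL was the highest library and TGF-β the lowest. *Gmnn* encodes geminin, which binds Cdt1 and stops origins from being licensed again, and had 10.6, 7.58 and 8.11 FPKM, from 183, 152 and 133 estimated fragments. Both stimulated libraries were below CTRL for *Gmnn*, and its log2 change with GDF15, -0.44, was the lowest of the 47 genes on the deposited values. After the trend with transcript length was removed it was -0.24 and no longer the lowest. The ratio of *Cdt1* to *Gmnn* FPKM was 1.46 in CTRL, 1.72 with GDF15 and 1.40 with TGF-β.

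The genes that turn the loaded helicase into an active one were lower than in CTRL in both libraries, all 6 of 6, apart from *Gins2* with GDF15 when libraries were centred on the median change. Over all genes 55.6% were lower with GDF15 and 62.8% with TGF-β. The counting interval lay below 1 for 3 and 4 of the 6, and for 29.8% and 35.9% of all genes. Their median log2 change was -0.22 with GDF15 and -0.28 with TGF-β. *Cdc45*, a core part of the active helicase, had 13.1 FPKM in CTRL, 11.1 with GDF15 and 9.70 with TGF-β. *Gins3*, a subunit of the GINS complex, had 3.14 FPKM in CTRL, 2.84 with GDF15 and 1.70 with TGF-β. The TGF-β library thus stood apart from the other libraries for *Gins3*, with 70 estimated fragments against 135 in CTRL and 143 in GDF15, a ratio to CTRL of 0.540 (0.401 to 0.731) and a log2 change of -0.62. The other GINS subunits were nearer to CTRL with TGF-β, though not all with GDF15. *Gins1* had 4.81, 3.99 and 3.68 FPKM, *Gins2* 8.87, 8.57 and 7.61, and *Gins4* 15.6, 12.6 and 14.0 FPKM in CTRL, GDF15 and TGF-β. *Mcm10*, a factor that binds the helicase at its activation, had 3.99, 3.31 and 3.23 FPKM. For *Gins3* the TGF-β level was also below the GDF15 level, with a ratio of 0.598 (0.444 to 0.803), while *Gins4* was lowest in GDF15. Most exon bases of *Gins2*, 2758 of 4097, are shared with *Gse1* on the opposite strand.

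Among the polymerases and primase, the subunits of DNA polymerase α differed in the size of their changes. *Pola1*, its catalytic subunit, had 2.60 FPKM in CTRL, 3.06 with GDF15 and 2.43 with TGF-β. *Pola2*, its regulatory subunit, had 17.5 FPKM in CTRL, 13.3 with GDF15 and 11.5 with TGF-β. *Pola2* was highest in CTRL and lowest in TGF-β, and *Pola1* was highest in GDF15, although not once the trends with length and GC content were removed. For *Pola2* the ratio was 0.762 (0.685 to 0.850) with GDF15 and 0.657 (0.583 to 0.740) with TGF-β, and for *Pola1* both intervals included 1. The FPKM of *Pola2* was 6.73 times that of *Pola1* in CTRL, 4.36 times with GDF15 and 4.73 times with TGF-β. The primase subunits, which make the RNA primers, were nearer to CTRL than *Pola2* was. *Prim1* had 11.4, 10.1 and 9.48 FPKM and *Prim2* 11.2, 11.3 and 10.2 FPKM in CTRL, GDF15 and TGF-β. *Pold1*, the catalytic subunit of the polymerase that copies the lagging strand, had 7.76, 6.80 and 7.36 FPKM, and *Pole*, that of the leading strand polymerase, had 5.37, 5.23 and 4.73 FPKM. With TGF-β all 6 genes of this group were lower than in CTRL, with a median log2 change of -0.13, though *Pola1* and *Pold1* were not under centring, nor was *Pold1* once the trends with length and GC content were removed. Over all genes 62.8% were lower. The counting interval lay below 1 for 3 of the 6 and for 35.9% of all genes.

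The clamp, its loader and the single-strand binding protein RPA held the largest summed level, 185.6 FPKM in CTRL, 180.8 with GDF15 and 176.4 with TGF-β. *Pcna* had 65.3, 66.2 and 69.2 FPKM in these libraries, and both of its intervals against CTRL included 1. The loader subunits differed among themselves. *Rfc1*, the large subunit, had 12.9 FPKM in CTRL, 14.4 with GDF15 and 12.3 with TGF-β. *Rfc2* had 22.8 FPKM in CTRL, 17.1 with GDF15 and 17.4 with TGF-β. *Rfc4* had 11.3 FPKM in CTRL, 8.86 with GDF15 and 6.92 with TGF-β, from 227, 207 and 132 estimated fragments. *Rfc2* was lower in both stimulated libraries by a like amount, *Rfc4* was lowest in TGF-β, and *Rfc1* was highest in GDF15. The log2 change of *Rfc4* with TGF-β, -0.64, was the lowest of the 47 genes on that scale, while *Gins3* had the lower FPKM ratio. The FPKM ratio of *Rfc4* was 0.611 (0.488 to 0.759). The log2 change of *Rfc2* was -0.40 with GDF15 and -0.37 with TGF-β, and 952 of its 6303 exon bases are shared with *Lat2* on the opposite strand. *Rfc3* had 11.6, 10.6 and 10.1 FPKM and *Rfc5* 6.42, 5.87 and 6.16 FPKM, with intervals that included 1. RPA coats single-stranded DNA at the fork. *Rpa1* had 30.8, 32.7 and 28.5 FPKM, *Rpa2* 8.80, 8.71 and 8.80, and *Rpa3* 15.7, 16.4 and 17.1 FPKM in CTRL, GDF15 and TGF-β. Only *Rpa1* of these 3 had intervals off 1, above it with GDF15 (1.01 to 1.12) and below it with TGF-β (0.875 to 0.976), and with the length trend removed it was not higher with GDF15.

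Of the genes for Okazaki fragment processing and repair, *Fen1*, the flap nuclease, had 11.8 FPKM in CTRL, 11.2 with GDF15 and 9.55 with TGF-β. *Lig1*, the ligase that seals the fragments, had 12.9, 12.1 and 11.6 FPKM. Both were highest in CTRL and lowest in TGF-β as deposited. *Fen1* was not lower with GDF15 than in CTRL once the trends with length and GC content were removed, and *Lig1* was not lower with TGF-β than with GDF15 once the expression trend was. Of *Fen1*, 1909 of 2422 exon bases are shared with an antisense gene, *Gm10143*. *Ung*, the uracil DNA glycosylase that removes uracil from DNA, had 1.004 FPKM in CTRL, 1.10 with GDF15 and 1.78 with TGF-β. The TGF-β library was the highest for *Ung*, with a log2 change of 0.47 and an FPKM ratio of 1.77 (1.16 to 2.76). It was the only one of the 47 genes whose interval lay above 1 with TGF-β, and it rests on 36, 46 and 61 estimated fragments.

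Genes of nucleotide supply and of chromatin behind the fork were lower with TGF-β than in CTRL, 8 of 8, where 62.8% of all genes were lower, except that *Tk1* was not once the trends with length and GC content were removed. The counting interval lay below 1 for 2 of the 4 nucleotide genes and 3 of the 4 chromatin genes, and for 35.9% of all genes. *Rrm1*, the large subunit of ribonucleotide reductase, had 19.1 FPKM in CTRL, 20.8 with GDF15 and 17.5 with TGF-β, and *Rrm2*, the small subunit, had 14.9, 14.4 and 12.9 FPKM. *Tyms*, the thymidylate synthase, had 3.04, 3.01 and 2.59 FPKM, and *Tk1*, the thymidine kinase of S phase, 15.1, 13.5 and 14.1 FPKM. Of these 4, *Rrm1* alone was higher with GDF15 than in CTRL as deposited, and it was not once the trends with length and GC content were removed. *Rrm2*, *Tyms* and *Tk1* also took either sign in that comparison under the alternatives. *Uhrf1*, which brings maintenance methylation to new DNA, had 13.0, 11.9 and 11.2 FPKM in CTRL, GDF15 and TGF-β. *Chaf1a*, the large subunit of the chromatin assembly factor that places histones on new DNA, had 9.06 FPKM in CTRL, 8.03 with GDF15 and 6.51 with TGF-β. *Chaf1b*, its partner, had 6.22, 5.55 and 5.41 FPKM, and *Slbp*, which binds the histone mRNA stem-loop, had 21.6, 20.3 and 19.01 FPKM. All 4 chromatin genes were highest in CTRL and lowest in TGF-β, although *Chaf1b* was not lower with TGF-β than with GDF15 once the expression trend was removed. For *Chaf1a* the TGF-β ratio was 0.719 (0.648 to 0.797), and 4648 of its 8854 exon bases are shared with *Ubxn6* on the opposite strand.

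Of the 4 G1/S switch genes, *E2f1* alone had counting intervals off 1 against CTRL, below it in both comparisons. *Ccne1*, which encodes cyclin E1, the partner of Cdk2 at S phase entry, had 3.29 FPKM in CTRL, 4.00 with GDF15 and 4.25 with TGF-β. *Ccne2*, for cyclin E2, had 3.79, 3.50 and 4.34 FPKM. *E2f1*, an activating E2F factor, had 22.3 FPKM in CTRL, 18.1 with GDF15 and 17.2 with TGF-β, and *E2f2*, its relative, had 1.18, 1.06 and 1.11 FPKM. *E2f1* was highest in CTRL, while both cyclin E genes were highest in TGF-β. The *E2f1* ratio was 0.811 (0.743 to 0.886) with GDF15 and 0.771 (0.703 to 0.848) with TGF-β. The *Ccne1* ratio was 1.22 (0.946 to 1.57) and 1.29 (0.993 to 1.67), so its log2 changes of 0.22 and 0.29 were within counting error. *Ccne1* was higher than CTRL in both comparisons under each alternative that kept it, and at a minimum mean of 5 FPKM it was left out.

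The libraries of the stimulated cells were also set against each other. The median log2 difference of the 47 genes, TGF-β minus GDF15, was -0.09, against -0.04 over all genes. Of the 47, 32 were lower with TGF-β, where 60.3% of all genes were lower. With the expression trend removed, 27 were lower, where 49.9% of all genes were. The counting interval lay below 1 for 12 and above 1 for 2, where the shares over all genes were 26.8% and 13.8%. The genes above 1 were *Ung*, with a ratio of 1.61 (1.09 to 2.43), and *Ccne2*, with 1.24 (1.03 to 1.51). On the scale of log2(FPKM + 1), none of the 47 passed 1.5-fold or 2-fold between these libraries, where 1.54% and 0.163% of all genes did. As plain FPKM ratios, *Ung* and *Gins3* passed 1.5-fold, where 2.89% of all genes did.

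Other genes of the cycle were described from lists of the same pathway. Of 42 further replication genes, 21 were lower with GDF15 and 26 with TGF-β, with median log2 changes of 0.01 and -0.08, where 55.6% and 62.8% of all genes were lower. One of them passed 1.5-fold, and 2-fold too, with TGF-β, where 5.59% and 1.48% of all genes did: *Rnaseh2c*, a subunit of the ribonuclease that removes RNA from DNA, with 25.8 FPKM in CTRL, 17.2 with GDF15 and 12.4 with TGF-β. Of 24 E2F and RB pathway genes with a mean of at least 1 FPKM, 12 were lower with GDF15 and 17 with TGF-β, with medians of 0.00 and -0.07, beside the same shares of all genes, and none passed 1.5-fold.

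The mitosis and G2 genes differed most from the replication genes in the TGF-β library. All 29 were lower than in CTRL, where 62.8% of all genes were, with a median log2 change of -0.52 against -0.15 for the replication genes. Of the 29, 8 passed 1.5-fold, where 5.59% of all genes did, and this count was 13 with a pseudocount of 0.1, 15 with none and 6 with the libraries centred. With GDF15, 14 of the 29 were lower, where 55.6% of all genes were, and their median log2 change was 0.02, but with the trends by length and GC content removed 23 were lower and the median was -0.05. Of the 8, *Plk1*, a mitotic kinase, had 11.03 FPKM in CTRL, 8.64 with GDF15 and 5.66 with TGF-β, and *Pttg1*, which encodes securin, the inhibitor of separase, had 34.0, 23.6 and 16.7 FPKM. *Cdc20*, an activator of the anaphase-promoting complex, had 32.8, 28.2 and 19.2 FPKM. The other 5 were *Aurka*, *Cenpa*, *Kif23*, *Birc5* and *Ube2c*, and between TGF-β and GDF15 *Ccnb1*, *Bub1b*, *Top2a*, *Hmmr* and *Kif23* passed 1.5-fold, lower, where 1.54% of all genes did. That count of 5 was 9 with a pseudocount of 0.1, 10 with none, and 3 with a common upper quartile, centring or the expression trend removed. In the promoter windows, 17 of 25 mitosis and G2 genes held the CHR word (68.0%) and 1 held an E2F word (4.0%).

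**Figure D4:**
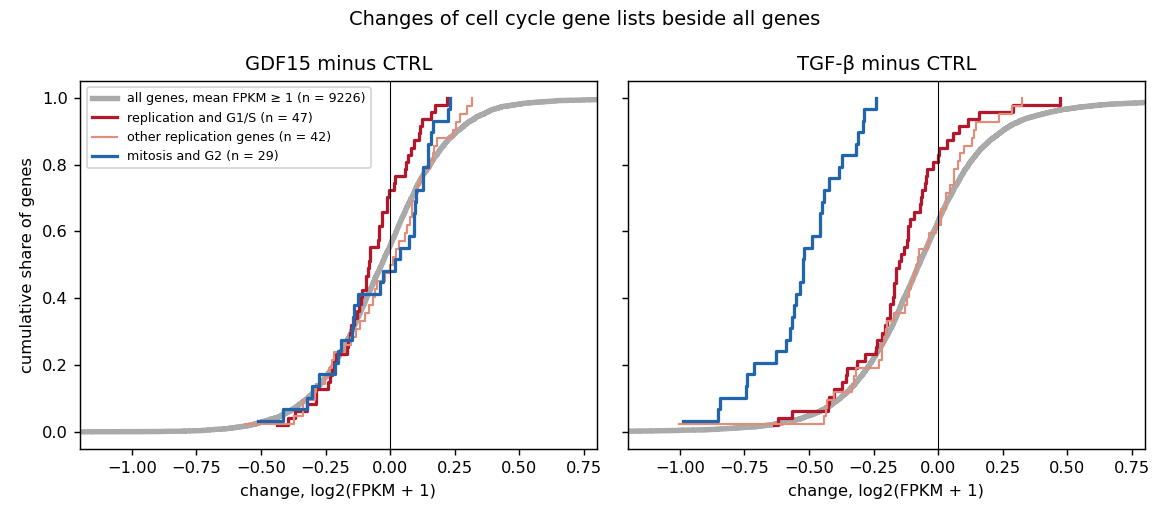
Cumulative share of genes by log2 change, GDF15 minus CTRL on the left and TGF-β minus CTRL on the right, for all 9226 genes, the 47 replication and G1/S genes, 42 other replication genes and 29 mitosis and G2 genes. The replication curve lies slightly to the left of all genes in both panels (medians -0.08 and -0.15), and the mitosis curve lies far to the left with TGF-β (median -0.52).

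Transcript length moved with the changes across all genes. Spearman's rho between log2 change and length was 0.48 with GDF15 and 0.24 with TGF-β over 9193 genes that share these libraries, and 0.33 and 0.10 over the 47. Up to 2000 bases, 15 replication genes had a median log2 change of -0.14 with GDF15 against -0.19 for all genes of that length. From 2000 to 4000 bases, 22 had -0.08 against -0.04, and above 4000 bases, 10 had -0.04 against 0.08. With TGF-β the medians were -0.16 against -0.15, -0.17 against -0.08, and -0.09 against -0.01 in the same order. With the length trend removed, the median of the 47 was -0.04 with GDF15 and -0.13 with TGF-β, against -0.03 and -0.07 over the 9193 genes. The part of length in the values was not tested.

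**Figure D5:**
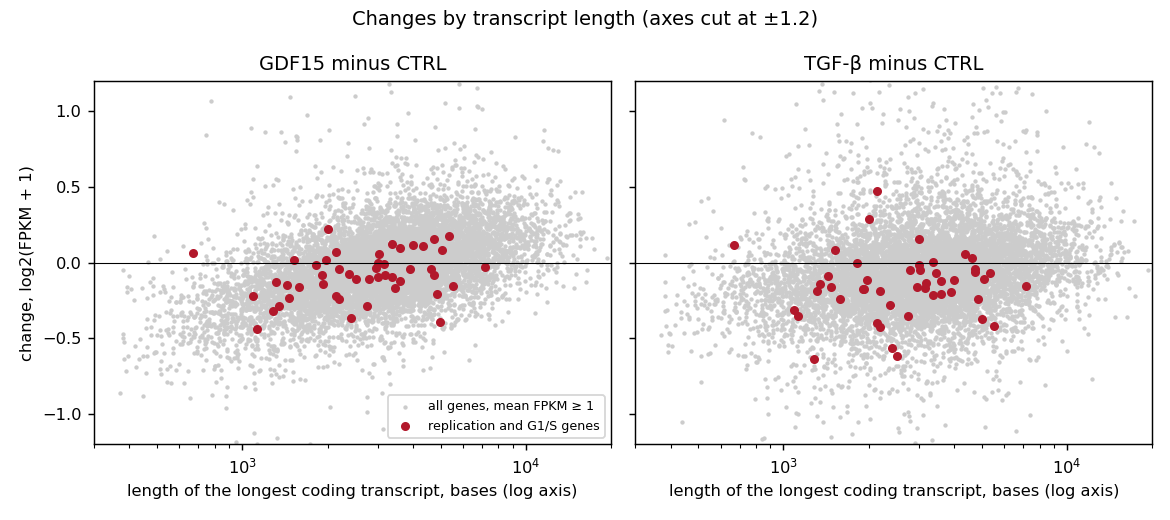
Log2 change of each gene against the length of its longest coding transcript in bases, on a log axis, for GDF15 minus CTRL on the left and TGF-β minus CTRL on the right, with all genes in grey and the 47 replication and G1/S genes in red. Short transcripts lie lower with GDF15, where the rho over all genes was 0.48.

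The cell identity matched the label as far as markers show. All 10 fibroblast markers were present, from 34.7 FPKM for *Thy1* to 5815 for *Fn1*. Of these, *Col1a1*, *Col1a2*, *Fn1* and *Sparc* passed 1.5-fold higher and *S100a4* and *Pdgfra* lower in at least 1 comparison with CTRL. *Epcam*, *Myod1* and *Myog* were listed at 0 in the 3 libraries, and none of 12 markers of epithelial, endothelial and muscle cells reached 1 FPKM in any library. Of leukocyte markers, *Ptprc* stayed at or below 0.148 FPKM, and *Cd68* had 1.66 in CTRL, 1.14 with GDF15 and 1.67 with TGF-β.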

How the data were processed

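RNA-seq of 3 libraries was analysed, 1 per treatment of NIH3T3 cells, from RNA pooled within the treatment (3 RNA samples were prepared per treatment). Columns were matched to treatments by name. Per the study's methods, the authors made stranded mRNA libraries, read 50 bases in single-end mode, computed FPKM with Cufflinks and deposited the FPKM of 15554 protein coding genes reviewed in UniProt. The submitters' processing notes name TopHat 1.3.2, Bowtie 0.12.9, Cufflinks 2.0.2 and mm10. The gene annotation and the strand setting of counting are not given in the sources used here, so reads of genes that overlap on opposite strands may not be told apart. *Pcna* and *Tyms* have annotated pseudogenes, with which they may share reads.

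From the deposited FPKM, changes were computed as differences of log2(FPKM + 1). All genes with a mean of at least 1 FPKM (9226) served as background. Every listed gene found in the table was named, and of other genes those past 1.5-fold. The members and gene lists were chosen with earlier results of these data known. Lengths came from GENCODE M21 (GRCm38), matched by symbol for 14725 rows and by an older symbol for 748, and 81 were not matched. Depth was estimated from low FPKM multiplied by length minus 199 bases, in coding genes with a single annotated transcript of any kind. Of 287 to 326 low values per library, 70.7% to 73.0% lay within 0.15 of a whole fragment. Exact conditional intervals (95%) of FPKM ratios used the estimated fragments and cover counting error only. Scripts were tested on simulated data. Values were computed with pandas 2.3.3, numpy 2.4.6 and scipy 1.17.1 under Python 3.11.15, and plots drawn with matplotlib 3.10.9.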

Additional observations from a re-analysis of the deposited data

How the results depend on the processing

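The 10 alternatives were pseudocounts of 0.5 and 0.1, no pseudocount, no filter on low values, a minimum mean of 5 FPKM, scaling to a common upper quartile, centring on the median change of genes with a mean of at least 10 FPKM, and removal of the trend with length, with length and GC content, or with expression. Of 1377 values of single genes, 1366 moved by less than the local spread of genes of like expression. The other 11, of *Ung*, *Gins3*, *Gmnn* and *Rpa3*, moved by more. No filter and a minimum mean of 5 FPKM leave each single value as it is, so those values could not move. The changes past 1.5-fold, of *Gins3* and *Rfc4* with TGF-β, kept their sign. In 108 of 141 gene and comparison pairs the sign was the same throughout. Pseudocounts and filters cannot change a sign, so only scaling, centring and trend removal could have done so. The count of genes past 1.5-fold between TGF-β and CTRL, 2 as reported, was 4 with pseudocounts of 0.5 and 0.1 or none (6.67%, 7.72% and 7.98% of all genes), 1 with a minimum mean of 5 FPKM or the length trend removed (5.25% and 5.36%), and 0 with a common upper quartile, centring or the expression trend removed (5.29%, 5.31% and 5.26%). Between TGF-β and GDF15 it was 1 with a pseudocount of 0.5 (2.02%) and 2 with 0.1 or none (2.75% and 2.89%). Centring gave 21 higher genes with GDF15 and 16 with TGF-β, removal of the expression trend gave 14 with TGF-β, and a minimum mean of 5 FPKM gave 5 of 36. The cause was not tested where trends or scaling changed a count. The median of the mitosis and G2 genes with TGF-β (29, or 26 at a mean of at least 5 FPKM) lay between -0.59 and -0.44 under the alternatives. No paired analysis was possible because only 1 pooled library stood for each treatment, and no library could be left out. Depth limits genes such as *Ung*, *Gins1* and *Gins3*, whose estimates rest on 143 fragments or fewer per library.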
